A study of Mus musculus with 3 samples.

Results

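TAC2 is a cell class that the depositors named in the corneal epithelium of C57BL/6J mice. Its cells were selected here on their raw counts of Mki67 and Top2a, genes of dividing cells. Of 38111 cells, 3186 carried the label TAC2, and 2999 of these held at least 2000 unique molecular identifiers (UMIs, the counted transcripts). High cells were those with 3 or more UMIs of Mki67 and Top2a together, and none cells were those with 0 of both. There were 1867 high cells, with 469, 661 and 737 in libraries 1, 2 and 3, and 561 none cells, with 109, 142 and 310. A further 571 cells had 1 or 2 UMIs, and 187 were under 2000 UMIs. The comparison asks what the TAC2 cells without these transcripts are. Mki67 and Top2a chose the cells, so their values are a description with no test.

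The epithelium was taken in homeostasis, with no treatment in the labels, was dissociated with trypsin and was sequenced as 3 single-cell libraries of pooled mice. Library 1 held 4 corneas of 2 males at 20 weeks of age, library 2 held 4 corneas of 2 females at 11 weeks, and library 3 held 7 corneas of 7 males at 10 weeks. High and none cells of a library came from the same pool, so each library gave 1 pair of sums and n = 3. Age, sex and pool size differ between libraries, so p-values measure only the spread of the pairs over these 3 pools.

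The cornea is covered by a stratified epithelium in which basal cells divide, leave the basal layer and move up through wing cells to a superficial layer. Transit-amplifying cells are the short-lived dividing progeny of stem cells. In a dividing cell the replication genes are transcribed towards and during S phase, and the mitotic genes in G2 and M phase. Mki67 coats mitotic chromosomes, and Top2a untangles sister DNA. The transcripts of both build up late in the cycle and fall after division, so a dividing cell early in the cycle can lack them. The sources used here do not spell out the name TAC2 or say how it was assigned.

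The libraries held 9488, 11273 and 17350 cells, with medians of 16159.5, 13232 and 8334 UMIs. Libraries shared 32 to 57 cell barcodes a pair, and 0 of these were a high or none TAC2 cell in both libraries. High cells were deeper than none cells in every library. Their median depth was 19685, 16985 and 10110 UMIs in libraries 1, 2 and 3, against 10656, 8742 and 4906 in none cells. The median share of mitochondrial UMIs was 1.62, 1.64 and 1.99% in high cells and 1.59, 1.49 and 2.00% in none cells. At 2000 UMIs per cell the median number of genes was 941 to 946 in high and 856 to 869 in none cells.

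Promoters of cell cycle genes, taken from the mitotic and replication lists in order of their difference among called members with an entry in the promoter table, are shown here because the replication and mitotic genes that separate the groups are known to be read through different promoter elements. The E2F element is known from replication genes. The cell cycle homology region (CHR) and the CCAAT box, which binds NF-Y, are known from mitotic genes. Each sequence runs from 150 bases before to 50 bases after the start of the gene, 5′ to 3′ on the strand of the gene, and is from RefSeq (GRCm38.p6). Capitals mark matches to the letters searched on both strands: TTTGAA or TTTAAA for CHR, CCAAT for the CCAAT box, and TTTGGCGC, TTTCCCGC, TTTGCCGC or TTTCGCGC for E2F. A match on the opposite strand stands as its reverse complement, such as ATTGG for the CCAAT box or GCGCGAAA for E2F.

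Ccnf (cyclin F) at chr17:24251360-24251559 on the minus strand and Aurka (Aurora kinase A) at chr2:172370521-172370720 on the minus strand are from the mitotic list. Clspn (the checkpoint adaptor claspin) at chr4:126556830-126557029 on the plus strand is from the replication list. So is Mcm10 (a replication factor) at chr2:5012742-5012941 on the minus strand.
Ccnf: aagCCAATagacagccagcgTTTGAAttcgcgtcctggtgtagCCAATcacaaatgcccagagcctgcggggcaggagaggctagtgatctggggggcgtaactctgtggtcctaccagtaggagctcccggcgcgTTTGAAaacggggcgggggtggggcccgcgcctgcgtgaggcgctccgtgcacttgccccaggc
Aurka: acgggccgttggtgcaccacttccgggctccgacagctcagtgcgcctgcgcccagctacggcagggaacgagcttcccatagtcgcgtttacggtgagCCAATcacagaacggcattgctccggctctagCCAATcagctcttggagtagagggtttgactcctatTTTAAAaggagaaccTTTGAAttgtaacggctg
Clspn: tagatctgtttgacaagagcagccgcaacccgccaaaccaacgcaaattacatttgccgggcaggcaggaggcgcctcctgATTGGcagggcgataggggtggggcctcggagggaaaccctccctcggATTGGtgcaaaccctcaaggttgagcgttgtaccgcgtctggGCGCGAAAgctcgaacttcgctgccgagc
Mcm10: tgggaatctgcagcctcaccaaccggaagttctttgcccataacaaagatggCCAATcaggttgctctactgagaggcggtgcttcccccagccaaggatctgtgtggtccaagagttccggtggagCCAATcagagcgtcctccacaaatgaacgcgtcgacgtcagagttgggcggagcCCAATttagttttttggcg
The Ccnf stretch has 2 CHR and 2 CCAAT matches, and that of Aurka has 2 of each. Clspn has 2 CCAAT matches and 1 E2F match, and Mcm10 has 3 CCAAT matches. Mybl2 and E2f1, the other genes chosen in this way, had no match in the same stretch.

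Of the 28 mitotic regulators 22 had an entry in the promoter table, and of the 43 replication genes 34. Over the table's whole window, from 250 bases before to 50 after the start, a CHR match was in 14 of 22 promoters of mitotic regulators (63.6%), 21 of 28 of spindle genes (75%) and 9 of 39 of replication genes (23.1%), against 27.6% of all 32851 promoters. A CCAAT match was in 77.3% of the mitotic and 53.8% of the replication promoters, against 37.4% of all. Of 25 kinetochore promoters 48% had a CHR match and 84% a CCAAT match. Of 17 promoters of cell cycle inhibitors 58.8% had a CCAAT match, a larger share than in the replication list, and 17.6% a CHR match. An E2F match was in 13 of 39 replication promoters (33.3%) and 1 of 22 mitotic promoters (4.55%), against 2.26% of all. A match is a description of letters and no site of binding, and no match says nothing about a factor.

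High cells made up 67.6, 70.2 and 54.0% of the TAC2 cells with at least 2000 UMIs in libraries 1, 2 and 3, a mean of 64.0% ± 8.69 (SD, n = 3). None cells made up 15.7, 15.1 and 22.7%, a mean of 17.8% ± 4.24. Exact (Clopper-Pearson) 95% intervals of the none share, which cover counting error only, ran from 13.1 to 18.6% for library 1, from 12.9 to 17.5% for library 2 and from 20.5 to 25% for library 3. Library 3, the shallowest library, had the smallest share of high and the largest share of none cells. Among cells with 5000 or more UMIs the none share was 14.9, 13.2 and 14.9% in libraries 1, 2 and 3. The high share was then 69.1, 74.1 and 65.9%.

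The shares differed with the depth at which they were taken. Among cells with 10000 or more UMIs the high share was 82.8% and the none share 6.70%. The none cells then numbered only 62, 37 and 9 in libraries 1, 2 and 3. With cells randomly reduced to 2000 UMIs each, the high share was 23.2% and the none share 40.4%. The replication and mitotic levels rose with the UMIs of Mki67 and Top2a on both sides of the threshold. The summed level of the replication list was 1616 and 2491 CPM (counts per 1e6 UMIs) in cells with 3 and 4 UMIs of Mki67 and Top2a, just inside the high group, and 540, 692 and 1040 CPM in cells with 0, 1 and 2. For the mitotic regulator and kinetochore lists together the level was 4207 and 4642 CPM at 3 and 4 UMIs, against 1605, 2776 and 3484 at 0, 1 and 2. These bins held 170, 117, 561, 349 and 222 cells in that order, and the levels were each summed over all libraries. The median depth was 6041 UMIs at 0 and 8401 at 4 UMIs of the 2 genes. With counts this small and unequal depth, the bins cannot tell a continuous range from distinct groups.

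Mki67 was at 403, 427 and 406 CPM in the high cells of libraries 1, 2 and 3, and Top2a at 521, 559 and 607 CPM, against 0 in all none sums, as the choice of cells requires. These and the following CPM of high and none cells are scaled by the trimmed mean of M values (TMM). Over all genes tested with edgeR's quasi-likelihood test, with library as a block, 3559 of 10769 (33.0%) differed between high and none cells at an adjusted p under 0.05. Of these 1831 (17.0%) were higher and 1728 (16.0%) lower in high cells. Without the library block the counts were 2118 in all, 1117 higher and 1001 lower. The median log2 fold change of all genes tested was 0.02, with 25% of genes below −0.31 and 25% above 0.38. Genes of the cell cycle move with Mki67 and Top2a, so their counts describe the choice of cells and nothing is read from them.

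Replication and repair genes were higher throughout in high cells. All 43 genes of the replication list were called higher (median log2 fold change 2.54). So were all 22 of the DNA repair list (3.24, or 3.19 with Fancb at its lower bound). The share called higher over all genes was 17.0%. Pcna, the sliding clamp of DNA polymerases, was at 213, 198 and 146 CPM in the high cells of libraries 1, 2 and 3, against 65.4, 47.5 and 42.2 CPM in none cells. The groups did not overlap, and the log2 fold change was 1.84 ± 0.10 (SE). Dut, which keeps uracil out of DNA, was at 267, 268 and 229 CPM in high cells, against 81.3, 78.6 and 74.1 CPM in none cells (1.70 ± 0.08). Clspn was at 62.1, 59.8 and 35.0 CPM in high cells, against 3.96, 2.74 and 0.65 CPM in none cells (4.49 ± 0.28). Pcna and Dut thus remained at CPM of over 40 in every none sum, while Clspn was near 0.

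Pole, the leading-strand polymerase, was higher by 4.67 ± 0.44, Esco2, which acetylates cohesin, by 4.68 ± 0.19 and the repair gene Brca1 by 4.54 ± 0.33 on the log2 scale. Pclaf, a partner of Pcna, averaged 456 ± 25.4 CPM in high and 50.7 ± 11.1 CPM in none cells (SD, n = 3). Fancb, of the Fanconi anaemia core complex, had 210 UMIs in high and 0 in none cells, at least 9.55-fold higher against a floor of 3 counts over the group.

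Mitotic genes were higher in most cases, but not in all. Of 28 mitotic regulators 24 were called higher and 1 lower (median 2.61), beside 17.0% higher and 16.0% lower over all genes. The counts were 24 higher of 25 kinetochore and centromere genes (2.67), 26 of 28 spindle and cytokinesis genes (2.53) and 16 of 19 condensin and chromatin genes (2.03), with 0 lower in each. Cdk1, the kinase that drives entry into mitosis, was at 280, 267 and 324 CPM in the high cells of libraries 1, 2 and 3, against 21.8, 18.3 and 18.2 CPM in none cells (3.93 ± 0.11). Aurkb, the kinase of the chromosomal passenger complex, averaged 120 ± 1.16 CPM in high and 5.81 ± 2.14 CPM in none cells (4.38 ± 0.18). For both, every none sum was far below every high sum.

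Large differences also covered Ccnf, at 5.39 ± 0.38, and Kif11, the motor that separates the spindle poles, at 4.22 ± 0.23. Fbxo5, an inhibitor of the anaphase-promoting complex, was at 4.58 ± 0.23 and the condensin subunit Ncaph at 4.39 ± 0.28. Mybl2, a transcription factor of mitotic genes, had 182 UMIs in high and 0 in none cells, at least 8.27-fold higher. Slfn9, of the Schlafen family, was at 5.51 ± 0.39, with 46.0, 44.6 and 28.9 CPM in high cells, against 0, 0 and 1.95 CPM in none cells.

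Several genes of G2 and M phase did not pass the threshold, and their levels in none cells differed between libraries. Cenpa, the histone H3 variant of centromeres, was at 222, 235 and 339 CPM in the high cells of libraries 1, 2 and 3, against 55.5, 91.4 and 201 CPM in none cells (1.20 ± 0.30, adjusted p = 0.108). Ccnb2, a mitotic cyclin, was at 142, 168 and 182 CPM in high cells, against 41.6, 89.6 and 146 CPM in none cells (0.81 ± 0.34, adjusted p = 0.234). Cdc20, the activator of the anaphase-promoting complex, was at 158, 177 and 253 CPM in high cells, against 16.9, 52.1 and 112 CPM in none cells (1.67 ± 0.41, adjusted p = 0.110). In each library the high sum was above the none sum of the same library, and for Ccnb2 the ranges over libraries overlapped. The none cells of library 3 held the most of each.

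Birc5 (survivin) passed narrowly, at 453, 505 and 562 CPM in high cells, against 75.3, 103 and 205 CPM in none cells (1.98 ± 0.31, adjusted p = 0.0495). Its call ended with size factors in place of TMM (0.0507), with no filter on low counts (0.0997), with 2 UMIs as the lower limit of the high group (0.0536) and at 5000 UMIs or more (0.0653). Cenpa passed with any 1 library left out (log2 fold change 0.99 to 1.63), among cells with 10000 or more UMIs (1.67) and with DESeq2 (1.34, adjusted p = 0.00368). Pttg1 (securin) was the mitotic regulator called lower, with 53.9, 58.2 and 58.9 CPM in high cells, against 75.3, 80.4 and 70.2 CPM in none cells (−0.39 ± 0.11, adjusted p = 0.00394).

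**Figure D1:**
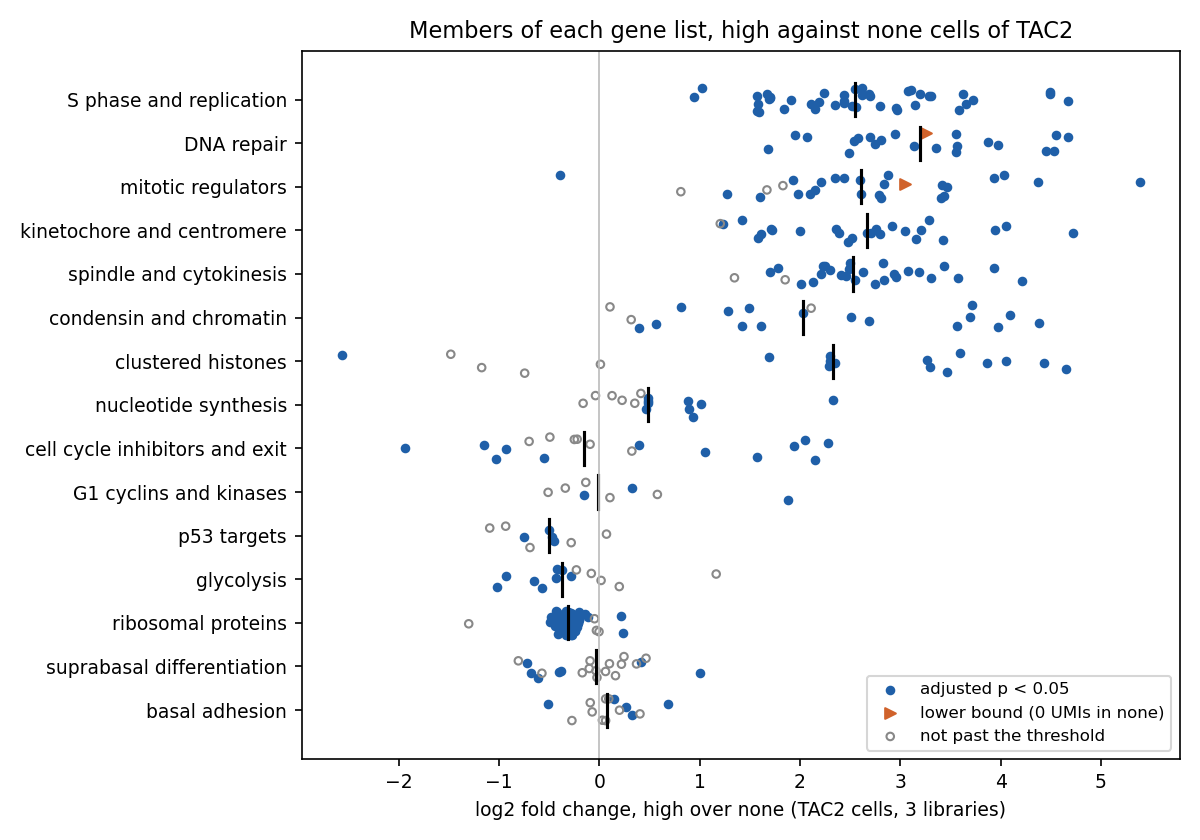
Log2 fold change of high over none TAC2 cells (x axis) for each member of 15 gene lists (rows), with filled points past an adjusted p of 0.05, open points not past it, triangles at a lower bound where none cells had 0 UMIs, and a bar at the list's median. The replication, repair and mitotic lists lie to the right with medians between 2.03 and 3.19, the histone list spans −2.57 to 4.65, and the ribosomal protein list lies at a median of −0.31.

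Histone genes went both ways. Of 18 clustered histone genes 13 were called higher and 1 lower (median 2.33), beside 17.0% higher and 16.0% lower over all genes. Hist1h1b, a linker histone, was at 639, 812 and 365 CPM in the high cells of libraries 1, 2 and 3, against 38.7, 17.4 and 24.7 CPM in none cells (4.43 ± 0.33). Hist1h2bc, a core histone, was at 86.5, 70.7 and 97.3 CPM in high cells, against 393, 405 and 744 CPM in none cells (−2.57 ± 0.17, adjusted p = 0.00119). It was the largest difference towards none cells under the rule for named genes, and the groups did not overlap. Between high and none cells drawn at equal depth it was at −1.74 (adjusted p = 0.0851).

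A pair of further histones leaned the same way without passing. Hist1h1c was at 110, 102 and 104 CPM in high cells, against 202, 172 and 558 CPM in none cells (−1.48 ± 0.54, adjusted p = 0.196). Hist1h4i was at 63.5, 52.6 and 67.5 CPM in high cells, against 94.2, 92.3 and 229 CPM in none cells (−1.17 ± 0.36, adjusted p = 0.149). All none sums lay above all high sums for both genes, with library 3 the highest. Most clustered histone transcripts carry no poly(A) tail, and the kit primes on poly(A), so these values cover the tailed part. Many clustered genes are near-identical copies, and the split of reads between them is uncertain.

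Inhibitors of the cell cycle split into a group higher in high cells and a group lower in them. Of 18 genes 7 were called higher and 5 lower (median −0.16), beside 17.0% higher and 16.0% lower over all genes. Cdkn2d, an INK4 inhibitor of Cdk4 and Cdk6, was at 108, 98.4 and 115 CPM in high cells, against 23.8, 19.2 and 23.4 CPM in none cells (2.28 ± 0.13, adjusted p = 2.95e-19). Cdkn2c, of the same family, was at 64.8, 59.5 and 81.6 CPM in high cells, against 25.8, 12.8 and 11.0 CPM in none cells (2.15 ± 0.19). The pocket proteins Rbl1 (1.94 ± 0.21), Rb1 (1.57 ± 0.21) and Rbl2 (1.05 ± 0.26), which hold E2F factors in check, were also higher, as was the cyclin G2 gene Ccng2 (2.05 ± 0.29). Cdkn1b, a CIP/KIP inhibitor, was higher by 0.40 ± 0.09. Without the library block Cdkn1b had an adjusted p of 0.385.

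Mxd4, a MAX partner that opposes Myc, led the inhibitors of none cells. It was at 7.66, 6.62 and 8.04 CPM in the high cells of libraries 1, 2 and 3, against 29.7, 38.4 and 19.5 CPM in none cells (−1.94 ± 0.22, adjusted p = 4.45e-10). Gadd45b and Gadd45a, stress-induced growth arrest genes, were lower in high cells by 1.04 ± 0.13 and 1.15 ± 0.24, the first at 32.4 ± 4.52 CPM in high and 65.0 ± 10.9 CPM in none cells. The INK4 inhibitor Cdkn2b was at −0.93 ± 0.22. Cdkn1a, the CIP/KIP inhibitor induced by p53, was at 29.5, 33.3 and 44.8 CPM in high cells, against 47.6, 42.9 and 67.6 CPM in none cells (−0.55 ± 0.13, adjusted p = 0.000587). In each library none cells had more Cdkn1a, and the ranges over libraries overlapped. Its call ended without the library block (adjusted p = 0.0547).

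Of 9 p53 target genes tested 0 were higher and 4 lower in high cells (median −0.50), beside 16.0% lower over all genes, among them Phlda3 at −0.50 ± 0.07 and Bax at −0.48 ± 0.10. The call of Phlda3 ended without the library block (adjusted p = 0.0831) and that of Bax at 10000 or more UMIs (0.248). The other 6 inhibitors did not pass, with Btg1 at −0.25, Btg2 at −0.09, Tob1 at −0.49, Ccng1 at −0.22, Trp53inp1 at −0.70 and Cdkn1c at 0.32.

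Among G1 cyclins and their kinases only Cdk2 passed with a log2 fold change above 1. Ccnd1 (cyclin D1) was at 552, 527 and 300 CPM in high cells, against 662, 558 and 322 CPM in none cells (−0.15 ± 0.06, adjusted p = 0.0310), a call that ended under most alternatives, with an adjusted p of 0.775 without the library block. Cdk4 was at 0.33 ± 0.07 (adjusted p = 0.000362). It had an adjusted p of 0.375 without the library block and a log2 fold change of −0.09 between cells drawn at equal depth. Cdk2, the partner of cyclins E and A, was at 1.88 ± 0.32. Ccnd2 (0.10), Ccnd3 (−0.34), Cdk6 (0.58), Myc (−0.51) and Mycl (−0.14) did not pass. Of 8 genes 2 were thus called higher and 1 lower, beside 33.0% called in either direction over all genes.

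Genes of growth and metabolism showed smaller differences. Their counts stand beside 17.0% called higher and 16.0% called lower over all genes. Of 15 nucleotide synthesis genes 9 were higher and 0 lower in high cells (median 0.48), with the folate enzyme Mthfd2 at 2.33 ± 0.32. Of 13 glycolytic genes 0 were higher and 8 lower (median −0.37). Ldha, lactate dehydrogenase, was at 459, 508 and 344 CPM in the high cells of libraries 1, 2 and 3, against 663, 757 and 525 CPM in none cells (−0.57 ± 0.05, adjusted p = 7.32e-13). Each high sum was below its none sum. Aldoa, aldolase, was at −0.94 ± 0.09, but at an adjusted p of 0.0581 without the library block.

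Of 81 ribosomal protein genes tested 2 were higher and 75 lower in high cells (median −0.31), beside 17.0% and 16.0% over all genes. The number lower was 18 among cells with 10000 or more UMIs and 50 without the library block. Ribosome biogenesis had 5 genes higher and 1 lower of 14, with the nucleolar protein Nop58 at 0.81 ± 0.12. Cholesterol synthesis had 1 higher and 4 lower of 14, chaperones 3 and 4 of 12, and genes of the mitochondrial genome 1 and 4 of 13, shares near or above the 33.0% of all genes called. Within the chaperones Hspb1, a small heat shock protein, averaged 1202 ± 86.6 CPM in high and 2354 ± 211 CPM in none cells (−0.97 ± 0.07), and Hsp90aa1 was at 0.86 ± 0.07. Immediate early genes had 2 higher and 4 lower of 11, with Junb at −0.44 ± 0.06.

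Markers of corneal identity were present in both groups. Krt12, the cornea-specific keratin, was at 13728, 11424 and 13657 CPM in the high cells of libraries 1, 2 and 3, against 21748, 19900 and 18987 CPM in none cells (−0.65 ± 0.09, adjusted p = 0.0345). Aldh3a1, the corneal crystallin, was at 12527, 10659 and 9930 CPM in high cells, against 17109, 15458 and 12245 CPM in none cells (−0.43 ± 0.04). Both were lower in high cells in every library. Of 11 corneal keratin and crystallin genes tested 4 were called higher and 4 lower in high cells (median 0.23), beside 33.0% over all genes. Pax6, the eye transcription factor, averaged 460 ± 10.3 CPM in high and 447 ± 2.92 CPM in none cells (0.04 ± 0.06, adjusted p = 0.624), a difference within 1 SE.

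The differentiation lists had medians near that of all genes. Of 21 suprabasal genes tested 2 were higher and 5 lower in high cells (median −0.03). Dapl1, linked to epithelial differentiation, was at 2287, 1832 and 2556 CPM in high cells, against 3370, 2825 and 3996 CPM in none cells (−0.61 ± 0.03, adjusted p = 2.14e-20), and Perp, a desmosome protein, was at −0.38 ± 0.04. Of 14 basal adhesion genes 4 were higher and 1 lower (median 0.08), with Dst, a hemidesmosome linker, at 0.32 ± 0.07 and the tetraspanin Cd151 at −0.52 ± 0.10. Of 18 basal and progenitor factors 4 were higher and 1 lower (median 0.09), with Yap1 at 0.61 ± 0.17 and the Notch target Hes1 at −0.53 ± 0.06. These counts, 7 of 21, 5 of 14 and 5 of 18 in either direction, lie near or below the 33.0% of all genes called.

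Among genes of a mean log2 CPM of at least 5, those lower in high cells by the largest amounts were a mixed set that included Hist1h2bc, Gadd45b, Hspb1 and Aldoa. Hsd17b2, a dehydrogenase of sex steroids, was at 60.6, 41.0 and 31.7 CPM in high cells, against 142, 98.7 and 71.5 CPM in none cells (−1.22 ± 0.10). Nudt22 (−1.04 ± 0.13), the calpain subunit Capns2 (−0.94 ± 0.09) and Tcim (−1.03 ± 0.11, adjusted p = 0.0843 without the library block) were also among them. The antisense gene Dmrta2os was at −1.01 ± 0.12. The sources used here do not say how reads were assigned by strand. Whether reads of a partner on the other strand were counted for it was not tested.

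Markers of conjunctival, limbal and superficial cells had members called higher in high cells, beside 17.0% of all genes called higher. Of 5 conjunctival markers 4 were called higher in high cells, and the summed level was 94.7 to 224 CPM in high and 36.6 to 89.5 CPM in none cells. Krt13 was at 59.4, 100 and 86.7 CPM in high cells, against 22.8, 57.6 and 27.9 CPM in none cells (1.23 ± 0.13). Cells holding 3 or more UMIs of Krt4, Krt13, Krt19 and Muc4 made up 5.83 to 21.8% of the high and 0.917 to 2.82% of the none cells of a library, with high cells the deeper. Krt13 lost its call between cells drawn at equal depth (0.35, adjusted p = 0.179) and without the highest doublet scores (0.15, adjusted p = 0.466). Krt4 was at 2.07 ± 0.23, with an adjusted p of 0.275 without the library block.

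Limbal markers summed to 171 to 548 CPM in high and 134 to 268 CPM in none cells, with 2 of 4 called higher. Superficial markers summed to 41.6 to 51.7 CPM in high and 28.1 to 30.0 CPM in none cells, with 1 of 2 tested called higher. The share called higher over all genes was 17.0%. Krt17 was at 17.6, 90.3 and 14.2 CPM in high cells, against 1.98, 7.31 and 0.65 CPM in none cells, and Krt16 at 0.41, 54.8 and 0.89 CPM in high cells, against 1.98, 7.31 and 0.65 CPM in none cells. The high Krt16 value came from library 2 alone, and in library 1 it was lower in high cells. Krt17 had an adjusted p of 0.222 without the library block. Immune markers summed to at most 1.18 CPM in high and 2.81 CPM in none cells, with Ptprc, H2-Aa and Lyz2 at 0 in every sum. Keratocyte, endothelial and erythroid markers summed to at most 2.37 CPM in high and 0.938 CPM in none cells. Melanocyte markers summed to 4.60 to 6.32 CPM in high and 3.04 to 3.75 CPM in none cells, with 0 of these called. The 95th percentile of the doublet score was 0.179, 0.193 and 0.232 in the high cells of libraries 1, 2 and 3, and 0.0835, 0.136 and 0.0996 in none cells. With the marker-carrying cells left out 3379 genes were called, of which 3233 were also called in the same direction with them.

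The none cells of TAC2 were then set beside the cells of other classes that also had 0 UMIs of Mki67 and Top2a, with at least 2000 UMIs each. These were 2778 TAC1, 8132 basal, 12622 wing and 573 LSC cells, and 5031 superficial (Squam) cells as a background. The classes were annotated on the same values, so this is a description with no test. CPM from here on are of each sum's own total with no TMM scaling. Counts of list members higher or lower in every library follow without a share over all genes, which was not taken. They describe the lists and cannot be set against a background. Summed mitotic transcripts were higher in none TAC2 cells than in basal and TAC1 cells without Mki67 and Top2a. The 28 mitotic regulators summed to 592, 808 and 1443 CPM in the none TAC2 cells of libraries 1, 2 and 3, against 256, 269 and 262 CPM in TAC1 and 131, 138 and 138 CPM in basal cells. The none TAC2 sums were above those of the other classes in each library, and library 3 was the highest.

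Cenpa was at 52.5, 85.2 and 188 CPM in none TAC2 cells, against 2.63, 2.76 and 2.21 CPM in TAC1 and 1.83, 2.36 and 3.38 CPM in basal cells. Ccnb2 was at 39.4, 83.5 and 136 CPM in none TAC2 cells, against 0.53, 1.00 and 0.28 CPM in TAC1 and 0.73, 1.76 and 1.47 CPM in basal cells. Cenpf, a kinetochore protein of G2 and M phase, was at 116, 140 and 190 CPM in none TAC2 cells, against 2.10, 3.18 and 2.07 CPM in TAC1 and 8.25, 6.85 and 9.61 CPM in basal cells. For all 3 genes the none TAC2 values lay above all values of the other classes. On the log2(CPM + 1) scale the median difference of none TAC2 from basal none cells was 2.40 for the mitotic regulators, with 25 of 28 genes higher in every library. It was 1.93 for kinetochore genes (21 of 25) and 2.29 for spindle genes (24 of 28). Against TAC1 none cells the medians were smaller. Mitotic regulators were at 1.43, with 20 genes higher and 1 lower in every library. Kinetochore genes were at 0.24 (12 higher, 5 lower) and spindle genes at 1.12 (14 higher, 2 lower). Condensin and chromatin genes were at −0.12 (6 higher, 8 lower).

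Replication genes went the other way against TAC1. The list summed to 617, 557 and 478 CPM in the none TAC2 cells of libraries 1, 2 and 3, against 2329, 2559 and 2283 CPM in TAC1 and 460, 507 and 356 CPM in basal cells. The median difference of none TAC2 from TAC1 none cells was −2.40, with 42 of 43 genes lower in every library, and from basal none cells 0.22, with 12 higher and 5 lower in every library. Pcna was at 61.9, 44.3 and 39.5 CPM in none TAC2 cells, against 146, 151 and 180 CPM in TAC1 and 52.7, 49.7 and 47.6 CPM in basal cells. The none TAC2 values thus lay below TAC1 and around those of basal cells. Mcm6, of the replicative helicase, was at 11.3, 9.38 and 6.08 CPM in none TAC2 cells, against 127, 129 and 116 CPM in TAC1 and 12.2 to 21 CPM in basal cells.

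**Figure D2:**
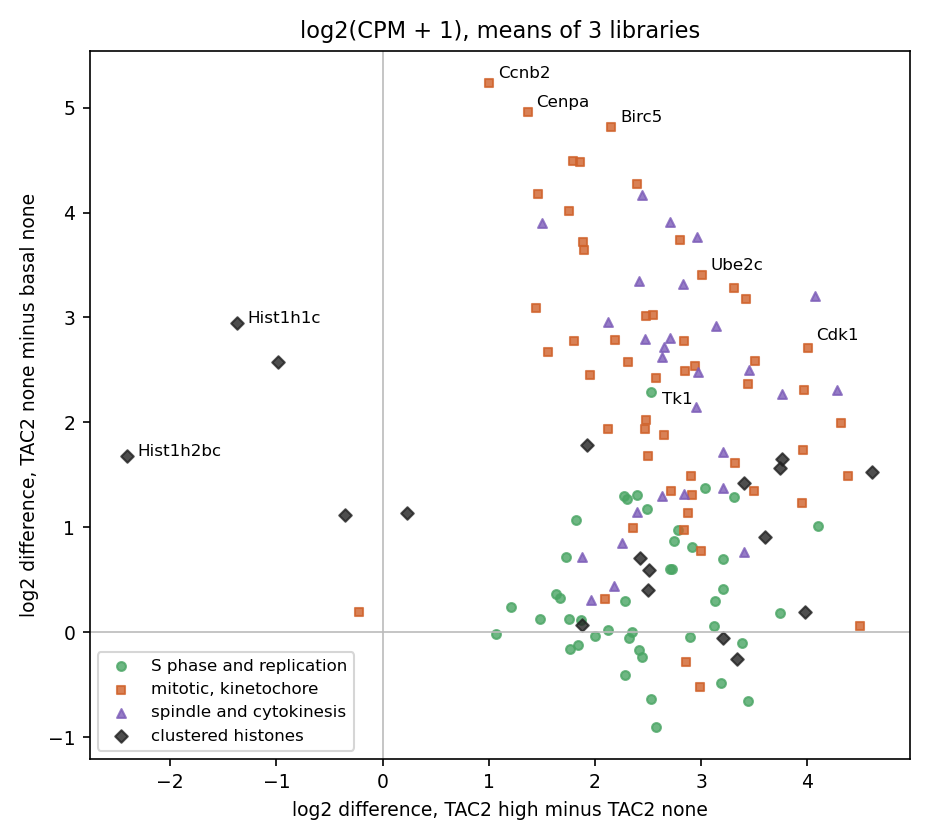
Difference in log2(CPM + 1) of library means between high and none TAC2 cells (x axis) and between none TAC2 and none basal cells (y axis) for the genes of 4 sets. Mitotic genes such as Ccnb2, Cenpa and Birc5 lie high on the y axis, replication genes have a median of 0.22 on it, and Hist1h2bc and Hist1h1c lie left of 0 on the x axis.

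Clustered histones were higher in none TAC2 cells than in basal none cells by a median of 1.06 on the log2(CPM + 1) scale, with 13 of 18 genes higher in every library. Inhibitors and exit genes had a median difference of −0.13 from basal none cells, with 5 of 18 higher and 7 lower in every library. Hist1h2bc was at 372, 378 and 696 CPM in none TAC2 cells, against 55.3, 73.5 and 49.8 CPM in TAC1 and 128, 140 and 181 CPM in basal cells. Hist1h1c was at 191, 160 and 522 CPM in none TAC2 cells, against 16.7, 20.3 and 22.2 CPM in TAC1 and 29.2, 28.2 and 53.3 CPM in basal cells. In every library both were higher in none TAC2 cells than in TAC1 and basal cells. Cells with 1 or 2 UMIs of Mki67 and Top2a had 434, 389 and 550 CPM of Hist1h2bc, in the range of none cells. Mxd4 was at 28.1, 35.8 and 18.2 CPM in none TAC2 cells, against 18.5, 17.2 and 18.1 CPM in TAC1 and 41.7, 42.2 and 36.0 CPM in basal cells, and so lay below basal cells in every library. Cdkn1a was at 45.0, 40.1 and 63.2 CPM in none TAC2 cells, against 15.9, 19.2 and 30.3 CPM in basal cells, and at a mean of 383 CPM in wing cells.

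Basal adhesion genes were lower in none TAC2 than in basal none cells, with a median difference of −0.51 and 11 of 14 lower in every library. Col17a1, a hemidesmosome collagen, was at 804, 811 and 843 CPM in none TAC2 cells, against 1325, 1148 and 1140 CPM in basal cells. Itgb4, its integrin partner, was at 115, 120 and 99.7 CPM in none TAC2 cells, against 178, 187 and 159 CPM in basal cells. Both were lower in every library. Against wing none cells the adhesion list was higher by a median of 0.97.

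**Figure D3:**
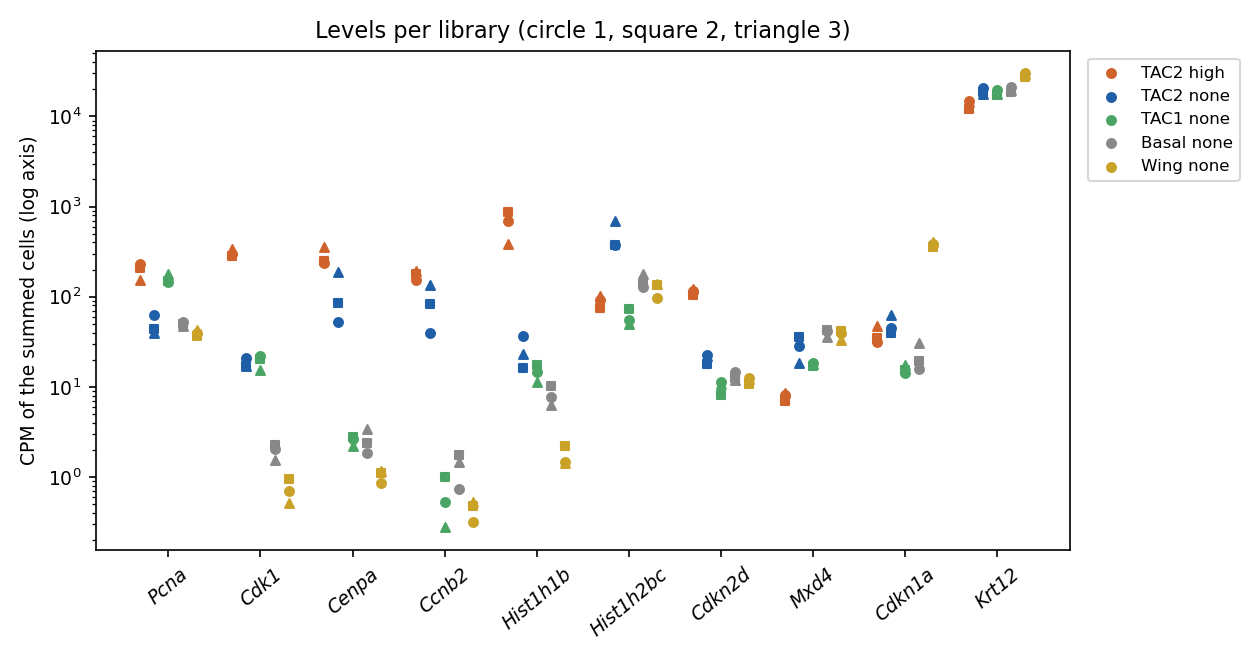
CPM on a log axis of 10 genes in high and none TAC2 cells and in TAC1, basal and wing cells with 0 UMIs of Mki67 and Top2a, with 1 point per library. In none TAC2 cells Cenpa and Ccnb2 lie between high TAC2 and basal cells, Pcna lies near basal cells, and Hist1h2bc lies above all the other groups.

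Over all genes of at least 20 CPM, with sums of a library thinned to the same total, none TAC2 cells were nearest to the TAC2 cells with 1 or 2 UMIs, with a median absolute log2 difference of 0.217 ± 0.0158 (SD, n = 3). Next came basal none cells at 0.259 ± 0.00995, TAC1 none cells at 0.290 ± 0.0168 and high TAC2 cells at 0.325 ± 0.0174, and then LSC (0.379), wing (0.552) and superficial (1.36) none cells. With genes of at least 50 CPM the order of the means was the same. In library 3 at that setting, however, high TAC2 cells (0.265) were slightly nearer than TAC1 none cells (0.269). Only Mki67 and Top2a were left out of this measure, so other cell cycle genes, which move with them, stayed in. High TAC2 cells were chosen for Mki67 and Top2a, and the none cells of every class for lacking them. The order is thus partly set by the choice of cells, and the difference from counting alone was not measured.

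Single cells were compared after thinning each to 2000 UMIs. A cell was counted for a list if it had 2 or more of its UMIs. With the 4 mitotic lists summed, 99.7% of none TAC2 cells passed, but so did 97.4% of superficial cells, so that measure did not separate classes. The mitotic regulators and kinetochore genes alone, a choice made after seeing the data, passed in 2.03% ± 0.123 of superficial and 6.56% ± 1.00 of basal none cells, and this is the background for the values that follow. Before thinning, median depths were 21782, 18793.5 and 9317 UMIs in superficial cells.

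Of the none TAC2 cells 48.6, 45.8 and 69.0% in libraries 1, 2 and 3 passed for these mitotic genes, a mean of 54.5% ± 12.7, against 98.9% ± 0.706 of high TAC2 and 24.2% ± 1.07 of TAC1 none cells. The exact 95% intervals, which cover counting error over cells only, were 38.9 to 58.4%, 37.4 to 54.3% and 63.6 to 74.1%. Library 3 had the largest share. Among none cells with 5000 or more UMIs the mean was 48.0% ± 14.9, also chosen after seeing the data.

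The cut at 2 UMIs sorts cells by counts that average 0.958 to 1.84 for the replication list and 2.87 to 4.71 for the mitotic genes in the none cells of a library, so many cells lie near it and the following shares are ranges of a score, not kinds of cell. In 37.4% ± 13.1 the mitotic genes alone passed, in 17.1% ± 1.96 both lists passed, and in 9.01% ± 5.0 the replication list alone. The replication list passed, alone or with the mitotic genes, in 26.1% ± 5.27 of none TAC2 cells, against 22.1% ± 4.29 of basal none cells, where it passed alone in 20.4% ± 3.92. Neither passed in 41.3, 40.8 and 27.4% of the none cells of libraries 1, 2 and 3, a mean of 36.5% ± 7.88. In high TAC2 cells both passed in 77.1% ± 4.08, the mitotic genes alone in 21.8% ± 3.90 and neither in 0.779% ± 0.629. In TAC1 none cells the replication list alone passed in 64.4% ± 0.990 and neither in 11.4% ± 1.68, and in basal none cells neither passed in 73.0% ± 3.59. A cell that passed for neither list may still hold such transcripts that 2000 UMIs did not show.

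**Figure D4:**
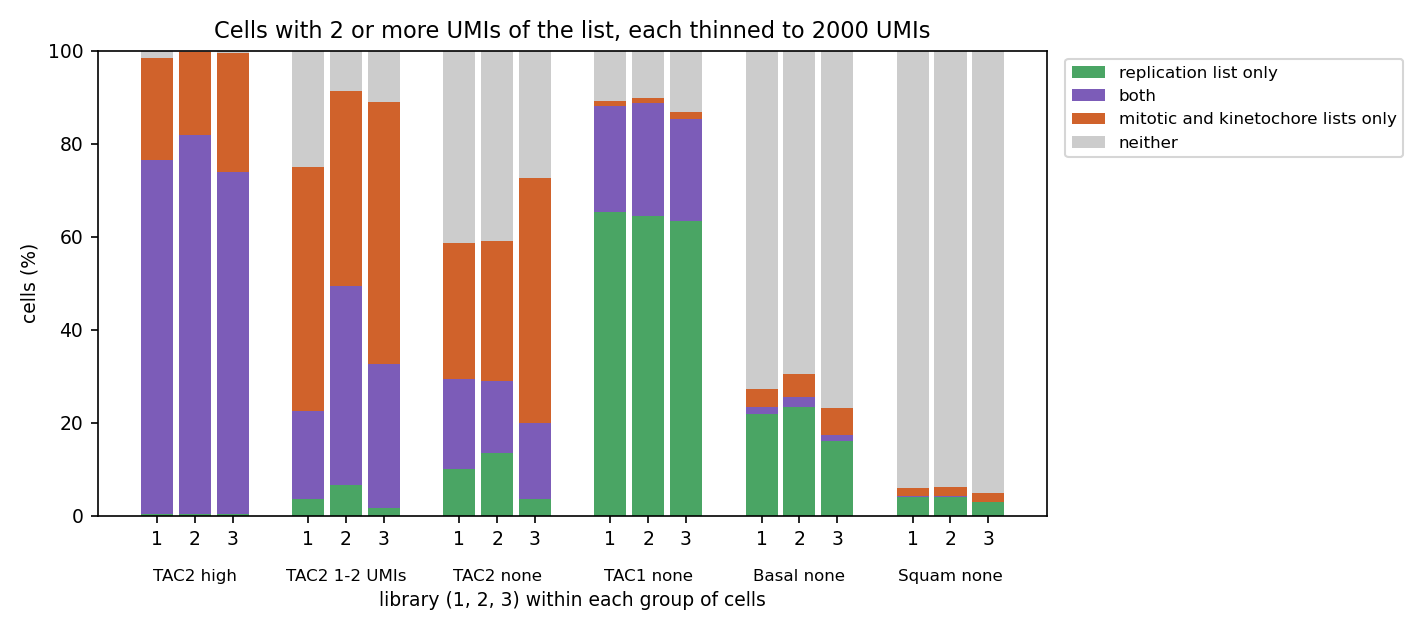
Share of cells (y axis, %) with 2 or more UMIs of the replication list only, the mitotic regulator and kinetochore lists only, both or neither, at 2000 UMIs per cell, with 1 bar per library. Neither list passed in 27.4 to 41.3% of none TAC2 cells and in 69.6 to 76.8% of basal none cells, and superficial cells give the background.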

How the data were processed

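Corneal epithelium was made into 3 droplet libraries with a 3′ kit. The authors deposited raw UMI counts per gene and cell (17931 genes, 38111 cells) and a table with each cell's library and class. Per the submitters' processing notes, Cell Ranger 5.0.0, Seurat 4 and mm10 were used. The sources used here do not state cell filters, doublet removal or the gene annotation. The number in the library name tied libraries 2 and 3 to their labels, library 1 was what remained, and 0 columns had no match.

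Counts were summed per library over high and over none cells and tested with edgeR 4.0.16 (R 4.3.3; quasi-likelihood F test, TMM, filterByExpr, robust fit, library as a block, since both sums of a pair come from the same library). P-values were adjusted by Benjamini and Hochberg over 10769 genes, with a threshold of 0.05. Errors are SE of the fit or SD over libraries. The test was also run on counts simulated from the means, library sizes and dispersion of these sums. Alternatives included DESeq2 1.42.0, size factors, no filter, other thresholds, matched or thinned depth, cells chosen on 50% of their UMIs and tested on the rest, and leaving out each library. Scrublet (scanpy 1.11.5) called 0 doublets in every library, so its calls were not used. No cell was removed, and its scores served only to rank cells. Cells under 2000 UMIs were left out. Python 3.11.15 with numpy 2.4.6, scipy 1.17.1 and pandas 2.3.3 was used.

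The split and the 20 gene lists (374 genes) were chosen with earlier results of these data known. Named genes were the 10 largest higher and 10 largest lower log2 fold changes past the threshold, of equal sign over libraries and at a mean log2 CPM from 5 upward, without mitochondrial, ribosomal protein and predicted genes, up to 4 members of each list, all inhibitors and G1 genes and the markers. Some genes that this rule reached are not reported here. Other genes in the text were chosen after their values were seen. The 2-list mitotic measure, its repeat at 5000 UMIs and the likeness at 50 CPM were chosen after seeing the data. Depth per sum was 1066044 to 10991329 UMIs.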

Additional observations from a re-analysis of the deposited data

How the results depend on the processing

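The count of 3559 genes fell to 2118 with no replicate block (1117 higher, 1001 lower), and pairing by library came from the shared pool. It was 1779 (1024 and 755) at 10000 UMIs or more, 1515 (777 and 738) with cells thinned to 2000 UMIs and 1851 (907 and 944) with DESeq2. Leaving out 1 library gave 2858 to 2958 genes, 1465 to 1517 higher and 1393 to 1443 lower. With no filter 58.5% of the calls were higher. Calls opposite in direction to those reported numbered 5 at matched depth, 5 without marker-carrying cells, 1 without the highest doublet scores and 0 elsewhere. The high share was 82.8% at 10000 UMIs, 54.3% from 5 UMIs and 23.2% after thinning, and the none share 6.70 and 40.4% at 10000 UMIs and after thinning. The likeness at 50 CPM, chosen after seeing the data, was 0.162 for cells with 1 or 2 UMIs, 0.218 for basal, 0.252 for TAC1, 0.274 for high and 1.34 for superficial cells.

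Of 116 named genes 92 were called, and 45 of these 92 lost the call under at least 1 alternative. Among all 116, 16 changed sign. Without marker-carrying cells Krt13 was at −0.57, Muc4 at −0.00604, Krt4 at −0.34 and Krt19 at −0.85, but these genes defined the cells left out, so the values say nothing about the result. Ly6g6c was then at −0.82. Ly6g6c was at −0.88 without the highest doublet scores. At 10000 UMIs Btg2 was at 0.0704, Cdkn1c at −0.16, Ccnd2 at −0.00457, Hmgcs1 at 0.00715, Ifitm3 at 0.00503, Ly6g6c at −0.0848 and Dct at −0.0774. At matched depth Tob1 was at 0.37, Cdk4 at −0.0881, Ccnd2 at −0.15, Jun at −0.13 and Ly6g6c at −0.82. Thinned, Btg2 was at 0.23 and Jun at −0.0643, and on the other 50% of UMIs Mycl was at 0.24 and Jun at −0.0258. With 1 library left out Btg2 ran from −0.15 to 0.0858, Ccnd2 from −0.0157 to 0.19, Jun from −0.0450 to 0.19, Ifitm3 from −0.37 to 0.10 and Pmel from −0.28 to 0.74. The cause of these changes was not tested. Depth limits the none group most: its sums held 1066044 to 1645280 UMIs in the main setting. At 10000 UMIs or more the none sum of library 3 held 9 cells and 106339 UMIs, so values at that setting are weak.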
